A study of Triticum aestivum with 3 samples.

Results

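The miR156 group is the set of plant microRNAs that recognise messenger RNAs of SPL (SQUAMOSA PROMOTER BINDING PROTEIN-LIKE) transcription factors, namely miR156 and its close relatives miR157, miR529 and miR535. Its members here are the rows of the deposited miRNA table named miR156, miR157, miR529 or miR535, taken as 1 row per distinct sequence. This gave 55 sequences from 71 rows, out of 1896 sequences from 1969 rows in all. By name, 50 of the 55 belong to miR156, 2 to miR157 and 3 to miR535, and no row of the table was named miR529. Small RNA came from leaves of wheat (Triticum aestivum) seedlings after 2 days in 1 of 3 conditions. These were dithiothreitol plus tauroursodeoxycholic acid (DTT+TUDCA), dithiothreitol alone (DTT), and a control. DTT is a reducing agent that disturbs protein folding in the endoplasmic reticulum, and TUDCA is a bile acid that acts as a chemical chaperone; the labels give no cultivar and no doses. Each condition is 1 sample read as 2 RNA pools made from 3 biological replicates, and how the replicates were divided is not stated. Paired values below are pool 1, then pool 2. The pools were used as repeat runs, so no p-value was computed, and every difference below describes these 6 libraries only. All values are normalized reads as the authors deposited them. The depth implied by the smallest steps of the values was 330652 to 1211765 reads per pool, of which 8583 to 41939 fell on the 55 members. The table holds no messenger RNA, so the leaf label was not checked against marker genes.

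miR156 keeps young plants in the juvenile phase by cleaving and repressing SPL transcripts. As a plant ages miR156 falls and SPL proteins accumulate, which switch on miR172, and miR172 in turn represses AP2-like floral repressors. In grasses the same module controls tillering and the branching of the inflorescence, and miR529 recognises a site that overlaps that of miR156 in some SPL genes. miR157 of Arabidopsis differs from miR156 by few bases and acts on the same targets. A miRNA precursor folds into a hairpin; the strand from its 5′ side (5p) is the active miR156, and the opposite strand (3p), the passenger, is normally degraded.

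The 5p members are shown first because 2 of them hold most of the reads. They are written 5′ to 3′ as DNA, from the deposited table, with the seed (bases 2 to 8) in capitals.
bdi-miR156b-5p: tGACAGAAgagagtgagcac
aof-miR156b: tTGACAGAagatagagagcac
aly-miR157a-5p_R+1: tTGACAGAagatagagagcact
aof-miR156b_L-1: tGACAGAAgatagagagcac
The prefix is the species a form was registered from (bdi Brachypodium, aof asparagus, aly Arabidopsis lyrata, ata Aegilops tauschii, zma maize), and L or R with a number gives bases added to or missing from the 5′ or 3′ end of the registered form. The name aof-miR156b hides a miR157: without its last base, aly-miR157a-5p_R+1 is the same 21 bases. Counted from the first base of the 20-nt bdi-miR156b-5p, the 20-nt aof-miR156b_L-1 differs by G11T and T14A. These positions lie outside the seed. The 5p forms were divided into a miR156 type (16 sequences) and a miR157 type (16 sequences). Each was given the type to whose main form it had fewer mismatches, with at most 2 mismatches to that form. bdi-miR156a_L+1R-1 lies at the same distance from both. In aof-miR156b and aly-miR157a-5p_R+1, 1 more base at the 5′ end than in bdi-miR156b-5p moves the seed by 1 position. Forms with the seed of aof-miR156b held 69.4% of the mean level of the group, and forms with the seed of bdi-miR156b-5p held 16.1%.

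The passenger forms are shown because they differ between some, though not all, of the precursors that share the same mature miR156.
bdi-miR156h-3p_L+1: tGCTCACTgctcttcctgtcatc
bdi-miR156h-3p: gCTCACTGctcttcctgtcatc
zma-miR156d-3p_1ss8TC: gCTCACTCctctttctgtcagc
bdi-miR156g-3p: gCTCACCCtctctctgtcagc
ata-miR156c-3p_L+1: tGCTCACTgctctatctgtcacc
bdi-miR156f-3p_L+1R-1: tGCTCACTgctctatctgtcag
aly-miR156c-3p_L+1: tGCTCACTgctctatctgtcaga
zma-miR156a-3p_L+1_2ss8TC14CT: tGCTCACCtctctttctgtcagt
aly-miR157c-3p: gCTCTCTAtacttctgtcacc
In all, 15 members are 3p forms. Of these, 10 carry grass names alone, 4 crucifer names (Arabidopsis lyrata) alone, and zma-miR156a-3p_L+1_2ss8TC14CT is also listed as aly-miR156b-3p_L+1. The 22 bases of bdi-miR156f-3p_L+1R-1 are the first 22 of aly-miR156c-3p_L+1. The other 7 members met neither rule; they include the 3 miR535 forms, and their highest mean was 8.48 normalized reads. Among them, sbi-MIR156g-p3 holds the first 19 bases of aly-miR156c-3p and was placed at the 3′ side of a miR156 hairpin on 6AL; with a mean of 0.133 normalized reads it was not counted with the 3p forms.

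The mature 20-nt form is common to 11 precursor positions of the wheat TGACv1 assembly, on 10 chromosome arms (2AL, 2DL, 3AS, 3B, 3DS, 5AL, 5DL, 6AL, 6BS and 6DS), so its reads cannot be divided among them. It appears in 11 rows under the names of Brachypodium, Aegilops, sorghum, maize, rice and barley, and no member carries a wheat (tae) name. 1 position is on scaffold 513120 of 6BS, plus strand, 300181 to 300316, and another on scaffold 543616 of 6DS, minus strand, 27337 to 27441. These 2 also carry zma-miR156d-3p_1ss8TC. The forms of bdi-miR156h-3p were placed on the long arms of the chromosome 6 homoeologues: bdi-miR156h-3p on scaffold 470857 of 6AL, minus strand, 184616 to 184786, its form with 1 more 3′ base on scaffold 500031 of 6BL, minus strand, 3634 to 3831, and its form with 1 more 5′ base on scaffold 527033 of 6DL, minus strand, 55265 to 55468. bdi-miR156g-3p was placed on 3AS, 5AL and 5DL, and ata-miR156c-3p_L+1 on 2AL and 2DL. The miR157-type forms had poorer positions. aof-miR156b was placed on a wheat transcript whose identifier names 5BL, minus strand, 1032 to 1155, at the 3′ side of the interval. Of the 14 positions of miR157-type forms, 9 spanned under 70 bases, against 1 of 24 for the miR156 type and 0 of 17 for the 3p forms. aly-miR157a-5p_R+1, aly-miR157c-3p and zma-miR156a-3p_L+1_2ss8TC14CT have no wheat position in the table. Gene annotation around the positions was not used here.

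The group took 2.58% and 3.46% of all normalized reads with DTT+TUDCA, 2.90% and 2.01% with DTT alone, and 2.04% and 2.84% in the control. Taken as 1 family, it ranked between 7 and 10 of 327 families. Its summed level was 17562 and 21627 normalized reads with DTT+TUDCA, 18537 and 10863 with DTT alone, and 13472 and 15943 in the control. The order of the treatment means was DTT+TUDCA (19595), control (14708) and DTT (14700). Both DTT+TUDCA pools lay above both control pools; the DTT pools overlapped with those of either other treatment. DTT against control gave a log2 ratio of the summed pools of -0.001, with -0.55 to 0.46 between single pools. DTT+TUDCA against DTT gave 0.41 (-0.08 to 0.99), and DTT+TUDCA against control gave 0.41 (0.14 to 0.68). All 3 ratios lay below the median of all measured sequences, which was 0.08, 0.72 and 0.66. The measures differ, since a ratio of sums is weighted by abundance and a median counts each sequence equally. The median of the measured members was -0.30, 0.58 and 0.46. Under median-of-ratios scaling the median of all measured sequences was 0.04, 0.47 and 0.45, and the group's ratio -0.005, 0.33 and 0.33.

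aof-miR156b, the miR157 sequence, was the most abundant member in every pool. It was at 8233 and 15200 normalized reads with DTT+TUDCA, 12581 and 6689 with DTT alone, and 9182 and 9634 in the control. The control pools lay between the pools of either treatment, and the log2 ratios to control were 0.03 for DTT and 0.32 for DTT+TUDCA. This form made up 46.9% to 70.3% of the group, lowest in DTT+TUDCA pool 1 and highest in DTT+TUDCA pool 2. The 3 most abundant members together made up 64.9% to 86.9% of the group.

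bdi-miR156b-5p, the canonical miR156, was at 2511 and 1952 normalized reads with DTT+TUDCA, 1646 and 1061 with DTT alone, and 1486 and 1864 in the control. Both DTT+TUDCA pools were above all 4 others, while the DTT and control pools overlapped. The ratio was 1.65-fold for DTT+TUDCA against DTT and 1.33-fold for DTT+TUDCA against control, both under the 2-fold limit used here. For DTT against control the log2 ratio was -0.31. Relative to aof-miR156b, it stood at 0.305 and 0.128 with DTT+TUDCA, 0.131 and 0.159 with DTT alone, and 0.162 and 0.194 in the control. This ratio needs no scaling between pools, and DTT+TUDCA pool 1 stood apart from the other 5.

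**Figure D1:**
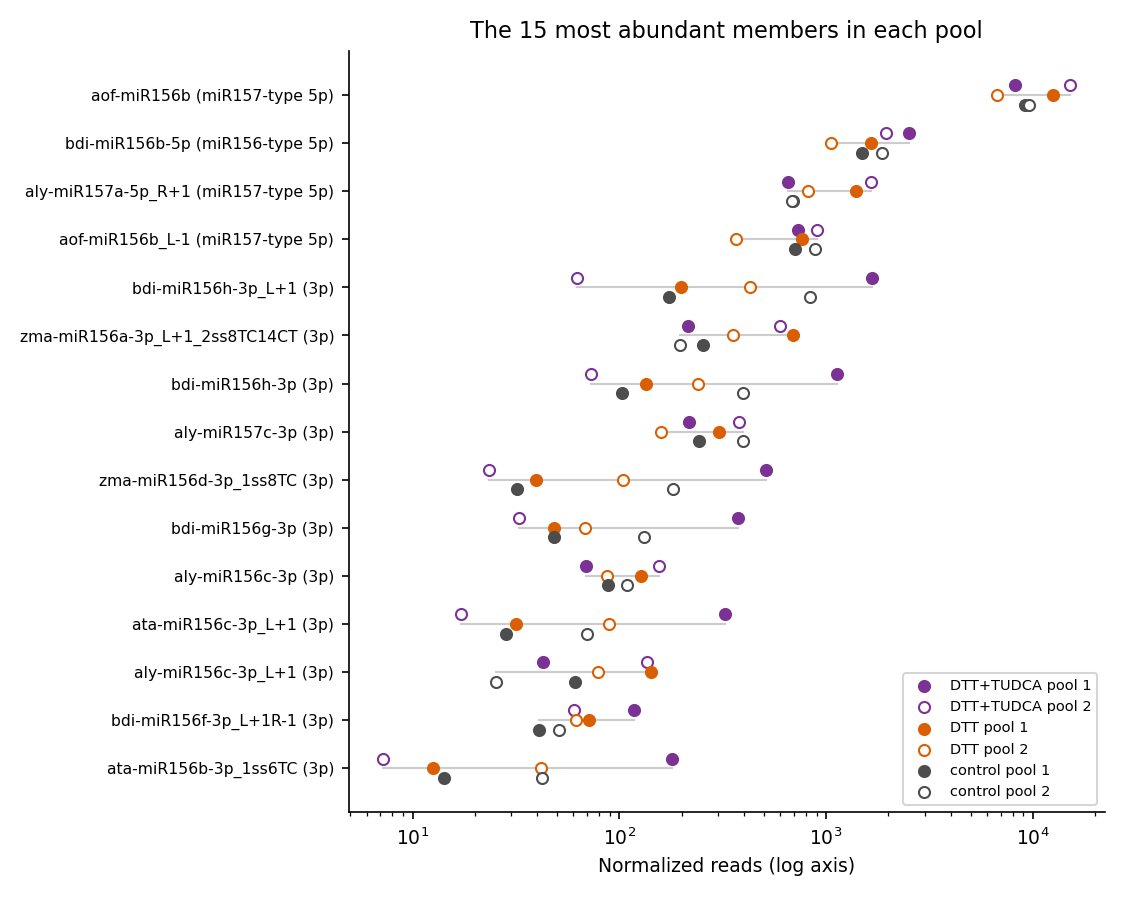
Normalized reads (log axis) of the 15 most abundant members, with 1 point per pool, filled for pool 1 and open for pool 2, coloured by treatment; grey lines span the 6 pools. aof-miR156b leads in every pool, at 6689 to 15200, and the widest spans belong to 3p forms such as bdi-miR156h-3p_L+1, at 62.4 to 1673.

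End variants of the miR157 sequence gave a view within each library. aly-miR157a-5p_R+1, with a T added at the 3′ end, was at 653 and 1652 normalized reads with DTT+TUDCA, 1389 and 819 with DTT alone, and 689.8 and 681 in the control. Both DTT pools were above both control pools, by 1.61-fold on the sums. Of the implied reads of this form and aof-miR156b together, the 22-nt form held 7.34% (95% Wilson interval 6.80 to 7.92) and 9.80% (9.49 to 10.1) with DTT+TUDCA. It held 9.94% (9.44 to 10.5) and 10.9% (10.3 to 11.5) with DTT alone, and 7.00% (6.39 to 7.65) and 6.60% (6.00 to 7.25) in the control. The DTT pools were above the control pools; of the DTT+TUDCA pools, pool 2 lay near the DTT pools and pool 1 near the control. The share of all normalized reads on exact Arabidopsis-named sequences without a wheat position, a set that does not hold this form, was likewise lower in DTT+TUDCA pool 1 (2.23%) and in the control (4.35% and 3.71%) than in DTT+TUDCA pool 2 (5.97%) and with DTT alone (5.13% and 5.52%). Its part in the share of the 22-nt form was not tested. Reads are not independent molecules, so the intervals cover counting error only, and the ratios of forms were chosen after their values were seen.

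aof-miR156b_L-1, which lacks the first base, went the other way. It was at 731 and 906 normalized reads with DTT+TUDCA, 765 and 368 with DTT alone, and 708 and 884 in the control. In its pair with aof-miR156b it held 8.15% (7.59 to 8.76) and 5.63% (5.38 to 5.89) with DTT+TUDCA. The values were 5.73% (5.34 to 6.15) and 5.21% (4.79 to 5.67) with DTT alone, and 7.16% (6.55 to 7.82) and 8.41% (7.74 to 9.12) in the control. Both DTT pools were below both control pools here, and the DTT+TUDCA pools again fell on both sides. aof-MIR156b-p5, which ends 2 bases early, was at 35.2 and 11.9 with DTT+TUDCA, 17.8 and 12.2 with DTT alone, and 36.1 and 35.6 in the control. DTT against control was 2.35-fold lower for this form, with pools that did not overlap.

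**Figure D2:**
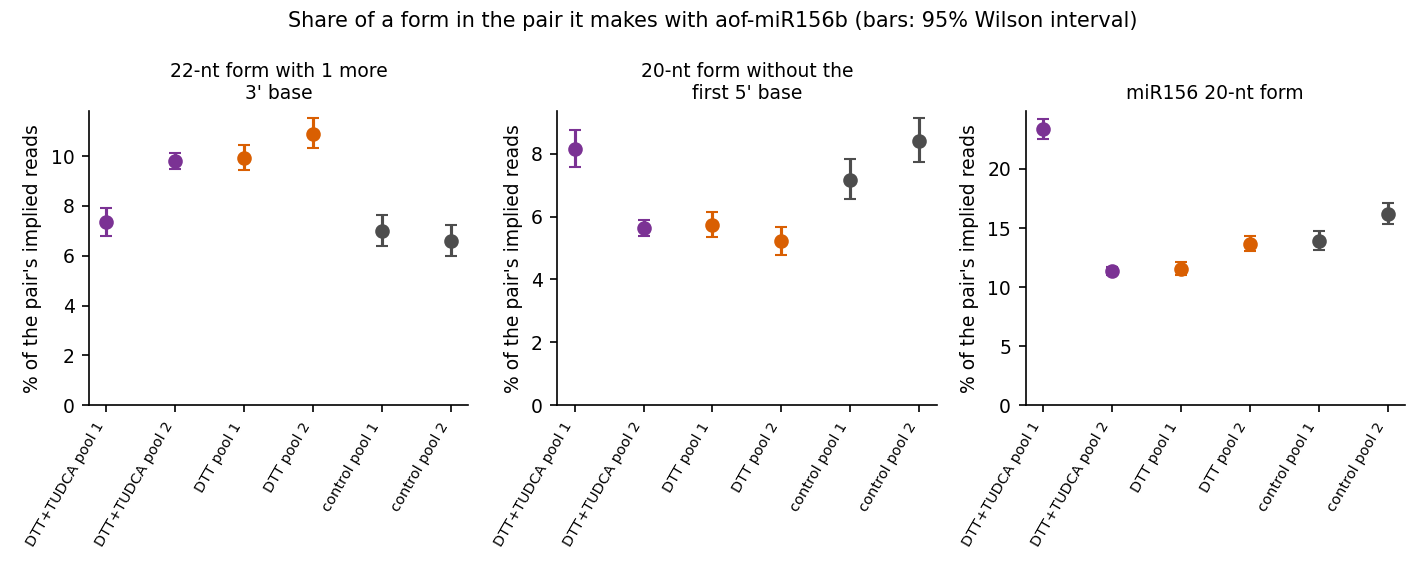
Share (percent of implied reads, axis from 0) that each named form holds in its pair with aof-miR156b in the 6 pools; bars are 95% Wilson intervals for counting error. The 22-nt form reaches 9.94% and 10.9% with DTT alone against 7.00% and 6.60% in the control, and the miR156 form reaches 23.4% in DTT+TUDCA pool 1.

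Most reads of each 5p type began at the first base of that type's main form in every pool. These main forms, bdi-miR156b-5p and aof-miR156b, start 1 base apart, so the reads have no single common start. Of the miR156-type and miR157-type reads, 91.9% to 94.9% began at the first base of the main form of their type, and 4.53% to 7.45% began 1 base later. Forms of 21 nt held 66.9% to 76.7% of them and forms of 20 nt 14.6% to 26.7%, both extremes of the second range being DTT+TUDCA pools. Forms of 22 nt held 5.55% and 8.54% with DTT+TUDCA, 8.64% and 9.33% with DTT alone, and 5.92% and 5.41% in the control.

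Passenger strands with grass names varied most between pools. bdi-miR156h-3p_L+1 was at 1673 and 62.4 normalized reads with DTT+TUDCA, 199.6 and 428 with DTT alone, and 174 and 835 in the control. bdi-miR156h-3p was at 1134 and 72.7 with DTT+TUDCA, 135 and 241 with DTT alone, and 104 and 399 in the control. In both, DTT+TUDCA pool 1 was the highest of the 6 pools and DTT+TUDCA pool 2 the lowest. zma-miR156d-3p_1ss8TC, from the short arms of 6B and 6D, was at 511 and 23.5 with DTT+TUDCA, 39.7 and 104 with DTT alone, and 32.2 and 182 in the control. bdi-miR156g-3p was at 376.8 and 32.8 with DTT+TUDCA, 48.4 and 68.2 with DTT alone, and 48.1 and 131 in the control. ata-miR156c-3p_L+1 was at 324 and 17.1 with DTT+TUDCA, 31.5 and 89.0 with DTT alone, and 28.3 and 69.6 in the control. In these 3 as well, DTT+TUDCA pool 1 was the highest pool and DTT+TUDCA pool 2 the lowest, although their positions lie on different chromosomes.

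Summed over the 10 grass-named 3p forms, the level was 4417 and 277 normalized reads with DTT+TUDCA, 543 and 1042 with DTT alone, and 449 and 1745 in the control. Relative to the miR156-type 5p reads the sum was 1.63 and 0.134 with DTT+TUDCA, 0.312 and 0.925 with DTT alone, and 0.285 and 0.875 in the control. This ratio was above 1 in DTT+TUDCA pool 1 alone. With all 15 3p forms it was above 1 in 4 pools, at 1.83 and 0.747 with DTT+TUDCA, 1.04 and 1.53 with DTT alone, and 0.696 and 1.24 in the control. The 15 include aly-miR157c-3p, a passenger of miR157, while the 5p reads are of the miR156 type alone. This is therefore not a ratio of the miR156 strands, and the ratio without aly-miR157c-3p was not computed. The 7 grass-named 3p forms with a mean of at least 20 normalized reads were all highest in DTT+TUDCA pool 1, and 6 of them spanned 11.5-fold to 26.8-fold between their highest and lowest pool. The exception was bdi-miR156f-3p_L+1R-1, whose sequence is contained in a crucifer form. It was at 118 and 60.2 with DTT+TUDCA, 71.7 and 61.7 with DTT alone, and 40.8 and 50.9 in the control, a span of 2.90-fold.

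The makeup of the pools moved with these forms. The families numbered miR1117 to miR1139, miR5048 to miR5086 and miR9652 to miR9863, which are wheat-lineage or repeat-derived, took 14.2% and 1.11% of all normalized reads with DTT+TUDCA, 1.71% and 6.52% with DTT alone, and 1.58% and 5.15% in the control. The 104 exact Arabidopsis-named sequences without a wheat position took 2.23% and 5.97% with DTT+TUDCA, 5.13% and 5.52% with DTT alone, and 4.35% and 3.71% in the control. The part of either in the levels of miR156 forms, and whether reads from another sample or species are among those of the crucifer-named forms, was not tested.

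**Figure D3:**
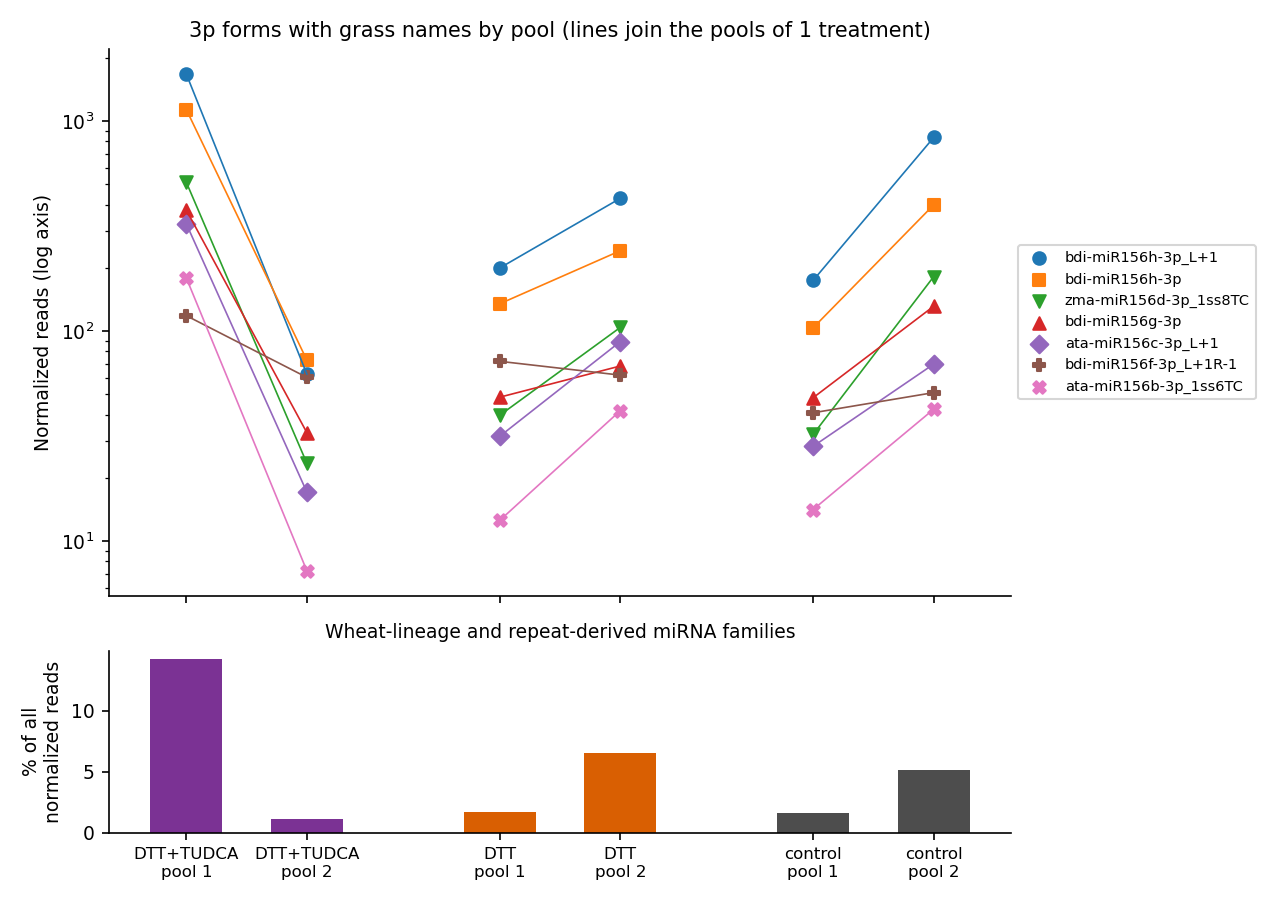
Upper panel, normalized reads (log axis) of the 7 grass-named 3p forms with a mean of at least 20, with lines joining the 2 pools of a treatment; lower panel, share of all normalized reads on wheat-lineage and repeat-derived families. Both are highest in DTT+TUDCA pool 1 (14.2% in the lower panel) and, apart from bdi-miR156f-3p_L+1R-1, lowest in DTT+TUDCA pool 2 (1.11%).

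Passenger forms with crucifer names did not follow the order of the grass-named forms and shared no single order. The highest pool was DTT pool 1 for aly-miR156c-3p_L+1, DTT+TUDCA pool 2 for aly-miR156c-3p, and control pool 2 for aly-miR157c-3p. zma-miR156a-3p_L+1_2ss8TC14CT, the sequence also named aly-miR156b-3p_L+1, was at 215 and 596 normalized reads with DTT+TUDCA, 692 and 353 with DTT alone, and 255 and 197 in the control. Both DTT pools were above both control pools, and the sums differed by 2.31-fold. aly-miR156c-3p_L+1 was at 42.6 and 136 with DTT+TUDCA, 143 and 78.5 with DTT alone, and 61.2 and 25.5 in the control. DTT against control was 2.54-fold higher, again with pools that did not overlap. Its registered form without the first base, aly-miR156c-3p, was at 127 and 87.1 with DTT alone and 87.9 and 109 in the control. Those pools overlapped, with a log2 ratio of 0.13. Summed over the 4 forms with crucifer names alone, the log2 ratio of DTT against control was -0.04. aly-miR157c-3p, the passenger of miR157, was at 217 and 377.5 with DTT+TUDCA, 302 and 159.8 with DTT alone, and 242 and 399 in the control, with overlapping pools in all 3 comparisons. Relative to aof-miR156b it was at 0.0264 and 0.0248 with DTT+TUDCA, 0.0240 and 0.0239 with DTT alone, and 0.0263 and 0.0414 in the control. In 5 of the 6 pools this ratio to aof-miR156b lay between 0.0239 and 0.0264, whereas bdi-miR156h-3p_L+1 stood at 0.0320 to 0.666 of bdi-miR156b-5p. The 2 forms of either pair need not come from the same precursor. aly-miR157c-3p has no wheat position, and bdi-miR156b-5p is common to 11 positions.

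**Figure D4:**
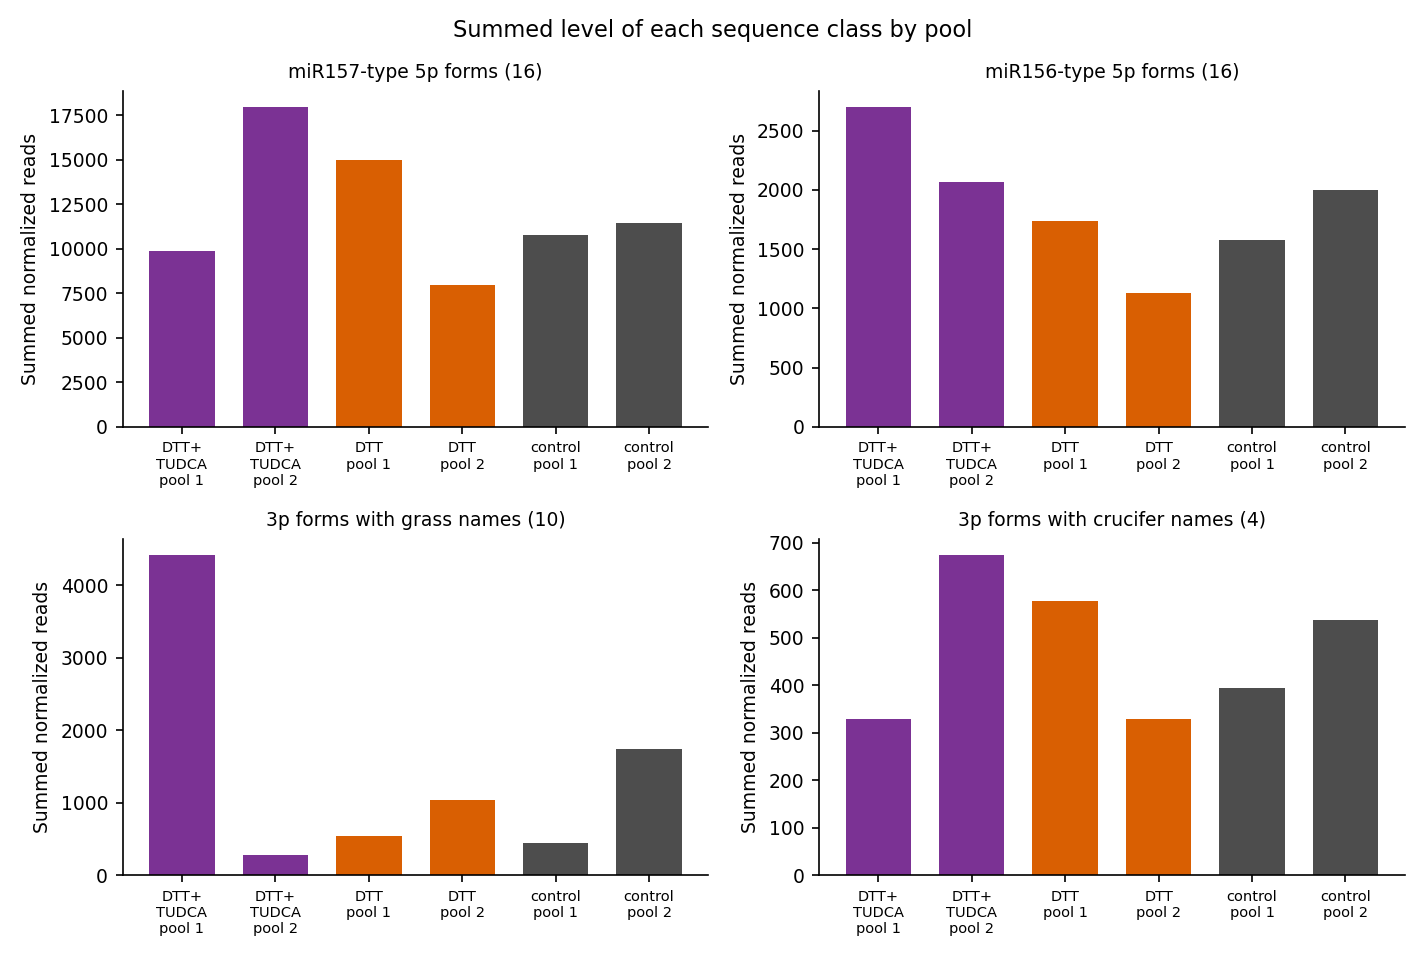
Summed normalized reads (bars, axis from 0) of 4 sequence classes in the 6 pools, with the number of sequences in brackets and no error bars, since each bar is 1 pool. The grass-named 3p forms reach 4417 in DTT+TUDCA pool 1 and 277 in DTT+TUDCA pool 2, while the miR157-type 5p forms are higher in pool 2 (17993) than in pool 1 (9852).

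In DTT against control, which asks what the reducing agent did alone, 30 of the 55 members had at least 20 normalized reads over the comparison and were measured. Of these, 4 were at least 2-fold higher and 3 at least 2-fold lower, with a median log2 ratio of -0.30. Among all 958 measured sequences 16.8% were higher and 10.2% lower, with a median of 0.08, so the members' shares (13.3% and 10%) lay near those of the table. With pools that also stood clear of each other, 4 of the 30 measured members (13.3%) were higher and 2 (6.67%) lower, against 13.3% and 8.14% of all measured sequences. The 4 higher members were aly-miR156c-3p_L+1, zma-miR156a-3p_L+1_2ss8TC14CT, pab-miR156o and cca-MIR156c-p3_2ss7CT17AC. pab-miR156o, a miR157-type form named from spruce, was at 19.9 and 10.8 with DTT alone and 7.85 and 5.09 in the control. cca-MIR156c-p3_2ss7CT17AC resembles neither strand of miR156 and was at 11.5 and 9.36 with DTT alone, against 5.09 in control pool 2 and a listed 0 in control pool 1. It passed the floor mainly through the DTT pools, where it was high. Its ratio and its clear pools rest in part on that listed 0, which sets no upper limit. Of the lower members, bdi-miR156h-3p_R+1 was at 3.13 and 5.04 with DTT alone and 7.85 and 16.97 in the control, 2.81-fold lower; the others were aof-MIR156b-p5 and bdi-miR156h-3p_L-1. Of the 9 measured grass-named 3p forms, 0 were higher and 2 lower, against 11.3% higher and 8.51% lower among all grass-named sequences. Both lower forms are end variants of bdi-miR156h-3p. bdi-miR156h-3p_L-1 was at 2.09 and 2.88 with DTT alone, and at a listed 0 and 18.7 in the control, so its pools overlapped. Each of the 6 calls with clear pools went under 2-fold without 1 of the pools. zma-miR156a-3p_L+1_2ss8TC14CT, aly-miR156c-3p_L+1 and pab-miR156o had log2 ratios of 0.64, 0.85 and 0.70 without DTT pool 1, and the last 2 also went under without control pool 2, at 0.85 and 0.92. cca-MIR156c-p3_2ss7CT17AC had 0.97 without control pool 1, and 4.45 without control pool 2, where only the listed 0 stood for the control. aof-MIR156b-p5 had -0.99 without DTT pool 2, and bdi-miR156h-3p_R+1 -0.86 without control pool 2. Without DTT pool 1 the member counts were 1 higher and 9 lower, without DTT pool 2 they were 6 and 5, and without control pool 1 they were 3 and 9. The shares of all sequences under these omissions were not computed.

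Adding the chaperone was compared with the reducing agent alone. Of 32 measured members, 12 were higher and 0 lower, with a median log2 ratio of 0.58; among all measured sequences 40.2% were higher and 3.46% lower, with a median of 0.72. The 12 are 37.5% of the members, again near the table's share. They comprise 8 of 9 grass-named 3p forms, all with overlapping pools, and 4 of 7 measured miR156-type 5p forms. These 4 had means of 5.50 to 27.6 normalized reads, while bdi-miR156b-5p, the main form, was at 1.65-fold. None of the 11 measured miR157-type forms was past 2-fold. Among grass-named sequences as a whole 64.6% were higher. With pools that also did not overlap, 2 of the 32 measured members (6.25%) were higher and 0 lower, against 7.55% and 1.82% of all measured sequences. These 2 are extended miR156 forms. aof-miR156a_R+1, the canonical form with 1 more base, was at 44.8 and 26.8 with DTT+TUDCA and 19.9 and 13.7 with DTT alone. Its log2 ratio of 1.07 went under 2-fold in 6 of 8 alternatives, among them all 3 rescalings (0.88, 0.93 and 0.87), and was lowest without DTT+TUDCA pool 1, at 0.66. bna-miR156d_R+3, with 3 more bases, was at 16.5 and 5.41 with DTT+TUDCA and 1.04 and 2.16 with DTT alone. Its log2 ratio was at least 1.49 in the same 8 alternatives, but none of these changed the floor or covers counting error. The form passed the floor mainly through the DTT+TUDCA pools, where it was high. As 1 read was worth 1.04 in DTT pool 1 and 0.72 in DTT pool 2, its ratio rests on very few DTT reads. Without DTT+TUDCA pool 1, 0 members were higher and 6 lower, and the log2 ratio of bdi-miR156h-3p_L+1 was -2.32 in place of 1.46. The shares of all sequences under this omission were not computed. Of 882 sequences with at least 20 normalized reads over the DTT+TUDCA pools, 625 lay at least 2-fold apart between them. Of those, 501 were higher in pool 1 and 124 in pool 2.

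DTT+TUDCA against control shows the joint treatment, and shares its pools with the other comparisons. Of 32 measured members, 10 were higher and 0 lower, with a median log2 ratio of 0.46. Among all measured sequences 41.4% were higher and 6.05% lower, and with the added demand that pools not overlap 13.6% and 5.24%. The members' share of 31.2% was below that of the table. By class, 6 of 9 grass-named 3p forms were higher, against 58.2% of the grass-named sequences in the table, and 1 of 7 miR156-type and 1 of 11 miR157-type 5p forms. Of the members past 2-fold, the pools did not overlap for 1 (3.12% of the 32 measured, against the 13.6% of all measured sequences). This was pab-miR156o, at 11.7 and 16.5 with DTT+TUDCA and 7.85 and 5.09 in the control. Its log2 ratio of 1.07 went under 2-fold in 4 of 8 alternatives, at 0.98 with median-of-ratios scaling, 0.89 with a pseudocount of 5, and 0.81 without DTT+TUDCA pool 2 or without control pool 2. Without DTT+TUDCA pool 1 the counts were 5 higher and 8 lower, and under median-of-ratios scaling 5 were higher. The shares of all sequences under these settings were not computed.

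**Figure D5:**
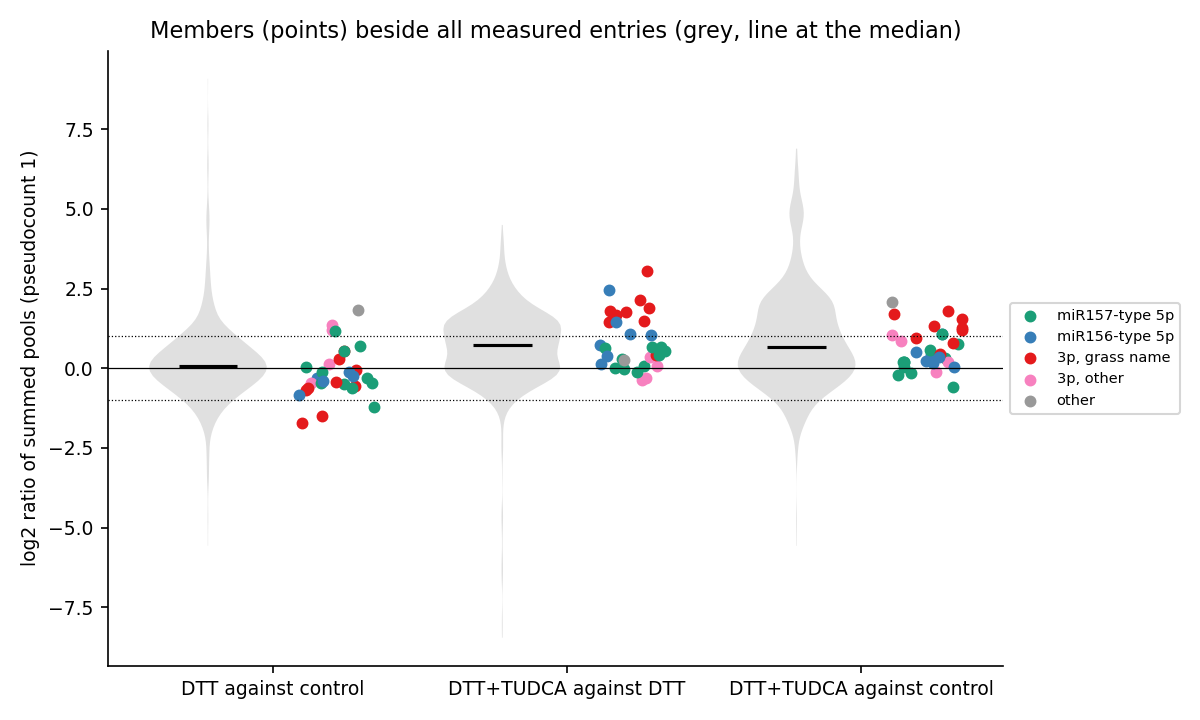
Log2 ratios of the summed pools (pseudocount of 1) for the measured members in each comparison, as points coloured by sequence class, beside the distribution of all measured sequences in grey with a line at the median; dotted lines mark 2-fold. In DTT+TUDCA against DTT, 8 of 9 grass-named 3p forms lie above the 2-fold line, and none of the 11 miR157-type forms does.

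Low members add little. In all, 30 of the 55 were above 0 in all 6 pools, 4 in 1 pool only, and 28 had a mean under 10 normalized reads. The miR535 forms were among the lowest. mes-miR535a was listed at 0 and 4.13 with DTT+TUDCA, at 0 in both DTT pools, and at 4.71 and 5.09 in the control. aof-MIR535-p5_2ss9AC17CA was at 7.46 and 1.55 with DTT+TUDCA and listed at 0 in the other 4. mes-miR535c_L+1R+1_1ss2TA was above 0 in control pool 1 alone, at 6.28. No ratio is given for these, since values worth 1 read are nearly absent from the table (2 to 7 per pool, against 147 to 214 worth 2 reads) and a listed 0 sets no upper limit.

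Other miRNAs of the age and flowering pathway, namely miR172, miR159 (which represses GAMYB-like factors), miR390 (which triggers TAS3 small RNAs against auxin response factors) and miR5200 (which targets FT genes in grasses), had 7 higher and 4 lower of 54 in DTT against control (13% and 7.41%, against 16.8% and 10.2% of all sequences; median 0.06). They had 12 higher and 0 lower of 56 in DTT+TUDCA against DTT (21.4% higher, against 40.2%; median 0.28). In DTT+TUDCA against control they had 11 higher and 3 lower of 57 (19.3% and 5.26%, against 41.4% and 6.05%; median 0.07). ata-miR172b-3p, the leading miR172, was at 13265 and 19886 normalized reads with DTT+TUDCA, 15475 and 23962 with DTT alone, and 24853 and 15397 in the control, overlapping throughout. The families whose sums followed the group most closely over the 6 pools, by root mean square difference of centred log2 levels, were miR160 (0.17), miR823 (0.19), miR167 (0.20), miR391 (0.23) and miR164 (0.23), out of 90 families with a median of 0.65. All share the libraries and the authors' scaling with the group. miR160 was at 11800 and 14086 with DTT+TUDCA, 13492 and 9858 with DTT alone, and 10321 and 10523 in the control.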

How the data were processed

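Small RNA libraries were made with a TruSeq kit and read as single ends of 50 bases, per the labels' protocols. The authors deposited 1 table with 6 columns of normalized reads (signal), 2 per treatment, per the file headers; trimming, alignment, counting and normalization were not given in the sources used here. Rows named miR156, miR157, miR529 or miR535 were reduced to distinct sequences in Python 3.11.15 with pandas 2.3.3. The 2 pools were summed per treatment, and log2 ratios used a pseudocount of 1, which shrinks low values; a member was measured where its pools in a comparison summed to 20 normalized reads or more, and 2-fold was the limit. No count test was run, since each treatment is 1 sample. Implied reads come from the step between values, of which 95.1% to 97.3% above 0 were whole within 0.01 reads. Wilson intervals (95%) cover counting error only. Of the 55 members, 4 share their values with another, so reads counted under 2 names enter sums 2 times. The steps were tested on simulated data whose pools of 1 treatment differed by counting error only. That test cannot show how 2-fold calls behave with the wider spread between the real pools. Members and lists were chosen with earlier results of these data known. Named members were those with wheat names (0), the 8 most abundant, the most abundant of each family and arm, and up to 5 per comparison and direction past 2-fold with pools that do not overlap; others are given as examples chosen after their values were seen.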

Additional observations from a re-analysis of the deposited data

How the results depend on the processing

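The group's log2 ratio stayed within the spread between pools under all 3 rescalings, a pseudocount of 5, all rows as listed, registered forms alone, identical values counted once, and without aof-miR156b (the last 2 chosen after seeing the data). With grass names alone it was 0.90 in DTT+TUDCA against DTT and 0.73 in DTT+TUDCA against control. Counts of members moved more. In DTT against control they were 1 higher with grass names alone, 1 higher and 0 lower with registered forms, 10 and 10 without a floor, 2 and 1 with a floor of 100, and 7 lower at a 1.5-fold limit. In DTT+TUDCA against DTT, 3 were higher with registered forms, 24 without a floor and 7 with a floor of 100. In DTT+TUDCA against control, 5 were higher with median-of-ratios scaling, 6 with equal grass totals, 6 with grass names alone, 4 with registered forms and 6 with a floor of 100; 22 were higher and 3 lower without a floor, and 1 lower at 1.5-fold. Fewer members enter with grass names, registered forms or the higher floor; the cause of the other moves was not tested. Leaving out each pool gave 1 to 6 higher and 2 to 9 lower in DTT against control, 0 to 16 and 0 to 6 in DTT+TUDCA against DTT, and 5 to 13 and 0 to 8 in DTT+TUDCA against control. Shares of all sequences were not computed beside any of these counts. Among named members past 2-fold as reported, directions turned for bdi-miR156h-3p_L+1 (-2.32 to 2.41), bdi-miR156h-3p (-1.36 to 2.59) and bdi-miR156h-3p_R+1 (-1.58 to 4.01) in DTT+TUDCA against DTT. In DTT+TUDCA against control they turned for bdi-miR156h-3p (-1.78 to 2.54), bdi-miR156h-3p_R+1 (-3.08 to 2.52) and aly-miR156c-3p_L+1 (-0.024 to 1.79, the low end without DTT+TUDCA pool 2). Several named members under 2-fold as reported also changed sign. In that comparison they include bdi-miR156h-3p_L+1 (-3.01 to 2.31, 0.78 as reported), zma-miR156a-3p_L+1_2ss8TC14CT (-0.07 to 1.40), bna-miR156d_R+3 (-0.46 to 4.52) and aof-miR156b (-0.19 to 0.69). aof-miR156b, the most abundant member, also changed sign in DTT+TUDCA against DTT (-0.23 to 0.81). The low ends of the miR156h forms came without DTT+TUDCA pool 1. In DTT against control, bdi-miR156h-3p_L+1 and bdi-miR156h-3p were at 0.85 and 0.86 without control pool 2. No paired analysis was possible because each treatment is 1 sample. With 2 pools per treatment, a spread between plants was not measured, and forms worth under 3 reads carry little weight.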

Other observations

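bdi-miR156h-3p_L+1 relative to bdi-miR156h-3p was at 1.48 and 0.858 with DTT+TUDCA, 1.48 and 1.78 with DTT alone, and 1.68 and 2.09 in the control. In the pair, bdi-miR156h-3p_L+1 held 46.2% in DTT+TUDCA pool 2, from 121 of its reads against 141, and the 95% Wilson interval of 40.2 to 52.2 includes equal shares. Between the pools of 1 treatment, 17 of 30 members lay 2-fold apart with DTT+TUDCA, 9 of 26 with DTT and 9 of 26 in the control. Over all sequences these shares were 70.9%, 33.7% and 27.2%, against 56.7%, 34.6% and 34.6% of the members.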
